A study of Homo sapiens with 18 samples.

Results

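RNase P and RNase MRP are related ribonucleoproteins, each built around a single noncoding RNA. The members described here are 4 Ensembl IDs, chosen by ID among the 60666 IDs of each table of immunoprecipitation (IP) results. ENSG00000259001 is a locus that overlaps RPPH1, the gene of the RNase P RNA, and ENSG00000277209 is RPPH1 itself. ENSG00000269900 and ENSG00000277027 are both IDs of RMRP, the gene of the RNase MRP RNA. Of these 4 IDs, 2 carried signal. ENSG00000277209 and ENSG00000277027 had a mean normalized count of 0 in all 3 IP tables and were not listed in the input table. ENSG00000259001 is called the RPPH1-overlapping locus here, because reads given to it may come from RPPH1, from the rest of the locus, or from both. RMRP here means ENSG00000269900.

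The study asked how the R-domain of ADAR3, an arginine-rich stretch outside its double-stranded RNA-binding domains, affects the RNAs that ADAR3 associates with. Cells of the established human glioblastoma line U373-MG were retrovirally transduced with an empty vector (control), FLAG-tagged ADAR3 WT or an R-domain mutant (ADAR3 R-Mutant), so ADAR3 was expressed from a transgene. All cells were grown in G418 and UV-crosslinked at 150 mJ/cm2, and input RNA and FLAG IP RNA were sequenced after ribosomal RNA depletion. With 3 genotypes, 2 fractions and 3 libraries in each of the 6 groups there were 18 libraries. The labels do not say whether the 3 libraries of a group came from separate cultures, so errors measure the spread between libraries, which may be technical. The tables pair no ID with a gene symbol, so the levels of ADAR3 itself, of glioblastoma markers, of the protein subunits of RNase P and RNase MRP and of other RNA polymerase III transcripts were not analysed here.

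The RNase P RNA is the catalytic part of the nuclear enzyme that removes the 5′ leader of precursor tRNAs. The RNase MRP RNA shares most of its protein partners and much of its fold with it, acts mainly in the nucleolus on precursor ribosomal RNA, and is mutated in cartilage-hair hypoplasia. Both are short, structured, non-polyadenylated RNAs made by RNA polymerase III from promoters that lie upstream of the transcribed sequence and typically hold an octamer, a proximal element and a TATA box.

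RefSeq places RPPH1 at chr14:20343071-20343411 (GRCh38.p14, 341 bases) and RMRP at chr9:35657750-35658019 (270 bases). The table gives no strand; both genes are known to be transcribed from the minus strand, and the orientation and distances given here rest on that. Each stands close to a protein-coding gene that starts on the other side of a shared promoter region. PARP2 begins 223 bases beyond the RPPH1 start, and CCDC107 begins 272 bases beyond the RMRP start. The next protein-coding genes on the other side are CCNB1IP1, 9791 bases from RPPH1, and SIT1, 6818 bases from RMRP. The promoter regions are shown because they are the sequence that the RNase P and RNase MRP RNA genes can be compared on here. Each is 250 bases, taken from the RefSeq promoter window of the neighbour up to its start, and written 5′ to 3′ on the minus strand, in the direction in which the noncoding RNA is made. Capitals mark the octamer ATTTGCAT and the TATA motif TATAA on the strand shown.
RPPH1, chr14:20343385-20343634: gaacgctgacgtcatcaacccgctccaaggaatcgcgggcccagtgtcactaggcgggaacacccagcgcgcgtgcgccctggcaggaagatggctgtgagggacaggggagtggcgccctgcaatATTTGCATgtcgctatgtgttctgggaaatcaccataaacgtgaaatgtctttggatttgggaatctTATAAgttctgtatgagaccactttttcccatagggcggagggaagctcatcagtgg
RMRP, chr9:35658042-35658291: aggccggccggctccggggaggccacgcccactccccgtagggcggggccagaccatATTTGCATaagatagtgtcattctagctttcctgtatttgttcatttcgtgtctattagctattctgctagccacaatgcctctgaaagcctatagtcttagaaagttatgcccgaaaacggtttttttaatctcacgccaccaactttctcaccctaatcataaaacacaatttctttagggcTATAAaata

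The RPPH1 window runs into the gene, so that its last 27 bases, atagggcggagggaagctcatcagtgg, are the 5′ end of the RNase P RNA. The RMRP window stops before the gene, with 22 bases between its end and the start of the RNA. TATAA began 30 bases before the start of RPPH1 and 31 bases before that of RMRP. The octamer lay at different distances, 97 bases before the RPPH1 start and 215 bases before the RMRP start. Both motifs were searched on both strands, and TATAA also matched on the other strand in the RPPH1 window, overlapping the match shown. Of 35116 RefSeq promoter windows of 300 bases, 1.77% held ATTTGCAT, 20.4% held TATAA and 0.575% held both on either strand. These matches describe the sequence, and no binding to the promoters was measured.

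Both measured loci were among the most abundant features of every table. In the authors' deposited table of input RNA, the mean normalized count was 172308 for the RPPH1-overlapping locus (the ninth highest of 34429 IDs, or 0.478% of the summed means). In the same authors' deposited table it was 225233 for RMRP (the fourth highest, or 0.625% of the summed means). The authors' IP comparisons are taken here to average over input and IP libraries, which the labels do not state. In the authors' deposited tables of IP comparisons, the mean of the RPPH1-overlapping locus was 137109 for ADAR3 WT with control, 127087 for R-mutant with control and 100846 for R-mutant with ADAR3 WT. The mean of RMRP in these authors' deposited tables was 151621, 147945 and 145899 in the same order. The RPPH1-overlapping locus thus had its lowest mean in the comparison without control. With the tables scaled to a common median gene, its mean without control was 0.695 of that of ADAR3 WT with control, and 30 of 13284 genes had a lower ratio. For RMRP the ratio was 0.909, and 2669 genes had a lower one. These 13284 genes are those with a mean of at least 50 in all 4 tables.

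The first comparison asks which RNAs were recovered differently with ADAR3 WT than with the empty vector. IP enrichment is taken here as the IP-to-input ratio of a genotype divided by that of the genotype it is compared with. This is an assumption, since the labels do not define the deposited fold change. Values are relative to the other RNAs in the libraries, since counts were normalized between libraries. The RPPH1-overlapping locus fell by 4.67 ± 0.31 (standard error) on the log2 scale in the authors' deposited table of ADAR3 WT versus control. This is 25.4-fold lower, with a 95% interval from 16.7-fold to 38.7-fold. It had the seventh lowest fold change among 13617 tested genes whose mean was at least 50. RMRP stood at a log2 fold change of -2.16 ± 0.90 in the same authors' deposited table, which is 4.47-fold lower. Its 95% interval ran from 1.31-fold to 15.3-fold lower, so the size of its difference is known far less well. Both values lay below those of nearly all abundant RNAs. Of 383 genes whose mean was at least 10000, whose median log2 fold change was -0.09 and whose 5th percentile was -1.50, the RPPH1-overlapping locus had the second lowest value and RMRP the seventh lowest.

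The R-mutant gave values of the same order. The log2 fold change of the RPPH1-overlapping locus in the authors' deposited table of R-mutant versus control was -4.23 ± 0.32, or 18.7-fold lower, with a 95% interval from 12.1-fold to 29.1-fold. Only 1 of the 13515 tested genes whose mean was at least 50 had a lower fold change. RMRP was at -1.86 ± 0.80 in that authors' deposited table, or 3.63-fold lower, with an interval from 1.22-fold to 10.8-fold. Among the 326 genes whose mean was at least 10000, the RPPH1-overlapping locus had the lowest fold change and RMRP the ninth lowest. The comparisons of ADAR3 WT and of the R-mutant share the control libraries, so their values are not independent of each other. The 95% intervals of the 2 loci did not overlap in either comparison, on the log2 scale from -5.27 to -4.06 against -3.93 to -0.39 with ADAR3 WT, and from -4.86 to -3.59 against -3.44 to -0.28 with the R-mutant. Both loci come from the same libraries, and the difference between them was not tested.

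**Figure D1:**
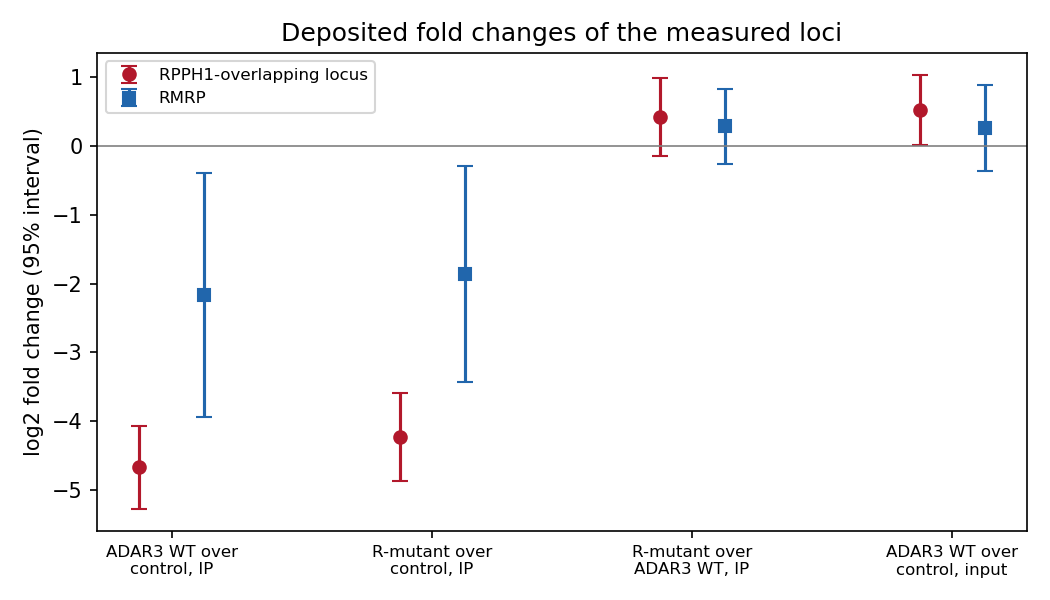
Log2 fold changes of the RPPH1-overlapping locus (circles) and of RMRP (squares) in the authors' deposited tables, with bars for the 95% interval from the deposited standard error. The intervals lie below 0 for both loci in the IP comparisons with control, span 0 for both in R-mutant versus ADAR3 WT, and for input lie just above 0 for the RPPH1-overlapping locus and span 0 for RMRP.

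The members were proposed with these IP values in view, so their calls against control are given as a description only. A gene was called where the deposited fold change divided by its standard error, in a two-sided normal test, had a Benjamini-Hochberg adjusted p under 0.05. Of the 2 measured loci, 1 was called lower in ADAR3 WT versus control, where 8.14% of 21121 genes were called lower, and 1 was called lower in R-mutant versus control, where 7.95% of 21120 genes were. In both cases this was the RPPH1-overlapping locus, and RMRP was not called. Lower calls were more frequent among abundant RNAs, at 23% of the 383 genes whose mean was at least 10000 in ADAR3 WT versus control and 22.4% of the 326 such genes in R-mutant versus control.

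**Figure D2:**
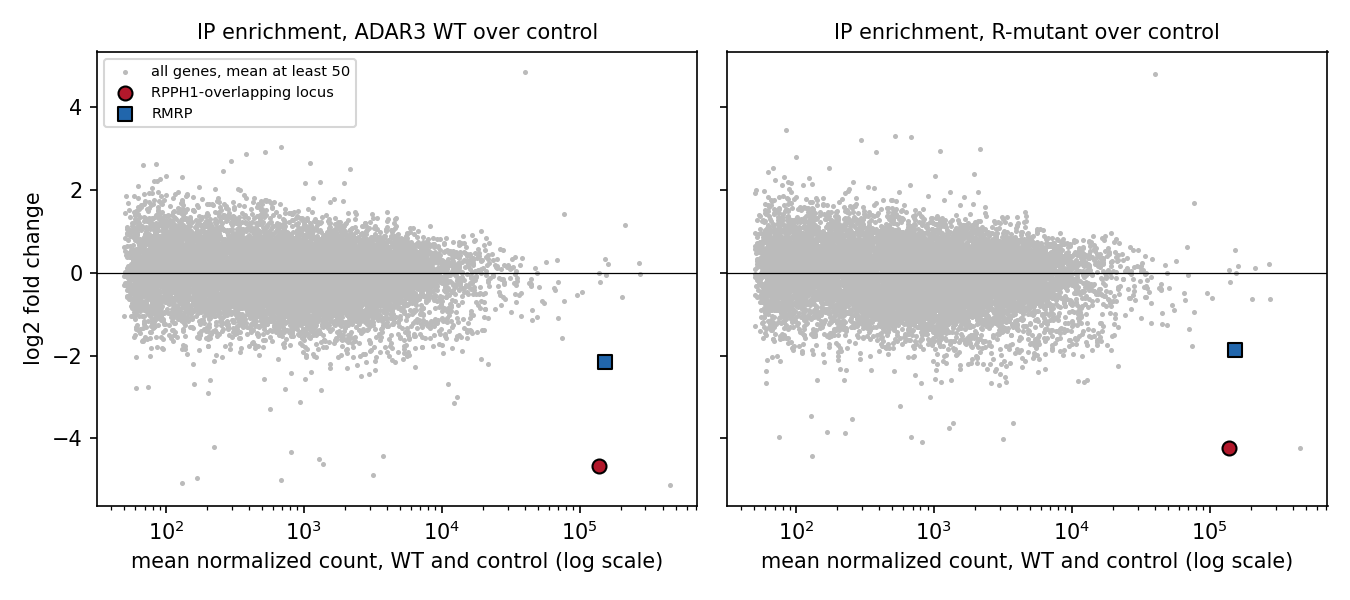
Log2 fold change of IP enrichment versus control (vertical axis) against the mean normalized count over ADAR3 WT and control libraries (horizontal axis, log scale), for ADAR3 WT (left) and the R-mutant (right). Grey points are the 13284 genes whose mean was at least 50 in all 4 tables; both loci lie at the high end of the mean, at -4.67 and -2.16 on the left and at -4.23 and -1.86 on the right, and both loci lie under the 5th percentile (-1.50 and -1.65) of genes whose mean was at least 10000.

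The direct comparison asks whether the R-domain mutation altered the recovery of these RNAs. In the authors' deposited table of R-mutant versus ADAR3 WT, the log2 fold change was 0.43 ± 0.29 for the RPPH1-overlapping locus, with a 95% interval from -0.14 to 0.99. For RMRP it was 0.29 ± 0.28 in the same authors' deposited table, with an interval from -0.26 to 0.84. Neither passed the normal test (adjusted p = 1.00 for each), and 0.00428% of 23385 genes did. Both intervals exclude a 2-fold difference in either direction, as they did for 55.2% of the genes tested, and that of the RPPH1-overlapping locus reaches close to 2-fold, at 1.99-fold higher in the R-mutant. Though small, both values were high for abundant RNAs. Among 413 genes whose mean was at least 10000, whose 95th percentile was 0.12, the RPPH1-overlapping locus had the second highest log2 fold change and RMRP the sixth highest. This comparison adds little that the comparisons with control do not hold. The difference of a gene's log2 fold changes versus control differed from its deposited log2 fold change of R-mutant versus ADAR3 WT by a median of 0.01 over the 13284 genes, and by 0.01 for each of the 2 loci.

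The authors' own test put the comparisons in another order than their fold changes, for both loci. In the authors' deposited tables, the likelihood ratio test gave the RPPH1-overlapping locus an adjusted p of 1.59e-57 for ADAR3 WT versus control, 4.25e-43 for R-mutant versus control and 1.74e-103 for R-mutant versus ADAR3 WT. For RMRP these authors' deposited tables give 0.137, 0.202 and 3.24e-43. The smallest p of each locus therefore stood beside its smallest fold change. The p-values are those of a chi-square variable with 7 degrees of freedom. A test of a single fold change would have fewer, so this p does not measure the fold change that stands in the same row. By it, 43% of genes passed in ADAR3 WT versus control, 40.8% in R-mutant versus control and 51.1% in R-mutant versus ADAR3 WT.

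In input RNA, neither locus passed the test for ADAR3 WT versus control. The RPPH1-overlapping locus stood at 0.53 ± 0.26 on the log2 scale in the authors' deposited table, or 1.44-fold higher, with a 95% interval from 1.01-fold to 2.05-fold (normal test adjusted p = 1.00). RMRP was at 0.27 ± 0.32 in that authors' deposited table, or 1.20-fold, with an interval from 0.782-fold to 1.85-fold (normal test adjusted p = 1.00). In this comparison 0.289% of 20411 genes passed. The value of the RPPH1-overlapping locus was the fourth highest among 524 genes whose mean was at least 10000, whose 95th percentile was 0.30, while RMRP was at rank 40 from the top. In bulk RNA, fewer cells holding an RNA and less of it per cell cannot be told apart. On the reading assumed here, input is the denominator of IP enrichment. The input values had the opposite sign to the IP values versus control. They were 0.53 beside -4.67 for the RPPH1-overlapping locus and 0.27 beside -2.16 for RMRP. Their part in the IP values was not tested.

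The deposited means and fold changes together imply a level for each of the 6 groups. This takes each IP table to average the input and IP libraries of its 2 genotypes with equal weight, and the fold change to be the ratio of IP over input between them. The mean of the control and the ADAR3 WT libraries can then be reached by 2 routes. The first uses the means of the 3 IP tables alone. The second uses the input table, the fold changes and the mean of ADAR3 WT with control. That mean enters both routes and fixes the same total for control and ADAR3 WT, so their ratios are tied to each other. With small fold changes the routes come close under other readings too. The ratios therefore bear little on how the fold change is read. Over 13284 genes, with the tables scaled to a common median gene, the ratio of the routes had a median of 0.989 for control (5th to 95th percentile 0.973 to 0.998) and 1.01 for ADAR3 WT (1.00 to 1.03). For the RPPH1-overlapping locus these ratios were 1.00 and 0.993, and for RMRP 1.00 and 0.999. The levels are implied values of groups, not measurements of libraries. Ranges beside them come from the 95% interval of the IP fold changes alone. The split between control and ADAR3 WT input rests on the input fold changes, which passed the test for neither locus. The error of the input fold changes is in none of these ranges.

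For the RPPH1-overlapping locus, the implied normalized count in input was 120012 in control, 172952 in ADAR3 WT and 174260 in the R-mutant. In the IP it was 241768 (235188 to 246297) in control, but 13705 (9176 to 20286) in ADAR3 WT and 18736 (12712 to 26974) in the R-mutant. Both ADAR3 IPs were the lowest of the 6 groups. The control IP was the highest, but without the scaling of the tables it was 192888, below the 203445 of the ADAR3 WT input. In order of level, the inputs of ADAR3 WT and R-mutant are near each other, and the ranges of both ADAR3 IPs overlap. IP over input was 2.01 (1.96 to 2.05) in control, 0.0792 (0.0531 to 0.117) in ADAR3 WT and 0.108 (0.0705 to 0.162) in the R-mutant. In control this ratio was higher than in 98.6% of the 13284 genes, while in ADAR3 WT only 9 genes and in the R-mutant only 26 genes had a lower one. By these implied values, with the tables scaled, the locus stood at the upper end of IP over input in control. Control cells held the empty vector and no FLAG-tagged ADAR3. The locus stood at the lower end in cells with either ADAR3. Counts are relative to the other RNAs in the libraries, so these values are not amounts of RNA recovered.

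For RMRP, the implied normalized count in input was 173801 in control, 209147 in ADAR3 WT and 230217 in the R-mutant. In the IP it was 176157 (116516 to 207215) in control, 47377 (16319 to 107017) in ADAR3 WT and 64284 (29220 to 104595) in the R-mutant. IP over input was 1.01 (0.670 to 1.19) in control, which is close to the median gene at 0.994. It was 0.227 (0.0780 to 0.512) in ADAR3 WT and 0.279 (0.110 to 0.551) in the R-mutant, with 186 and 417 genes lower. By these implied values, with the tables scaled, RMRP stood near the median in control and low with either ADAR3. The RPPH1-overlapping locus was high in control. The fold changes of RMRP versus control that these values rest on were not called in either comparison. Without the scaling of the tables, IP over input in control was 1.37 for the RPPH1-overlapping locus and 0.601 for RMRP. The ratio of routes then had a median of 1.15 for control and 0.889 for ADAR3 WT. Leaving out the scaling moves the ratios of all genes, so these values cannot be set beside the scaled median of 0.994.

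**Figure D3:**
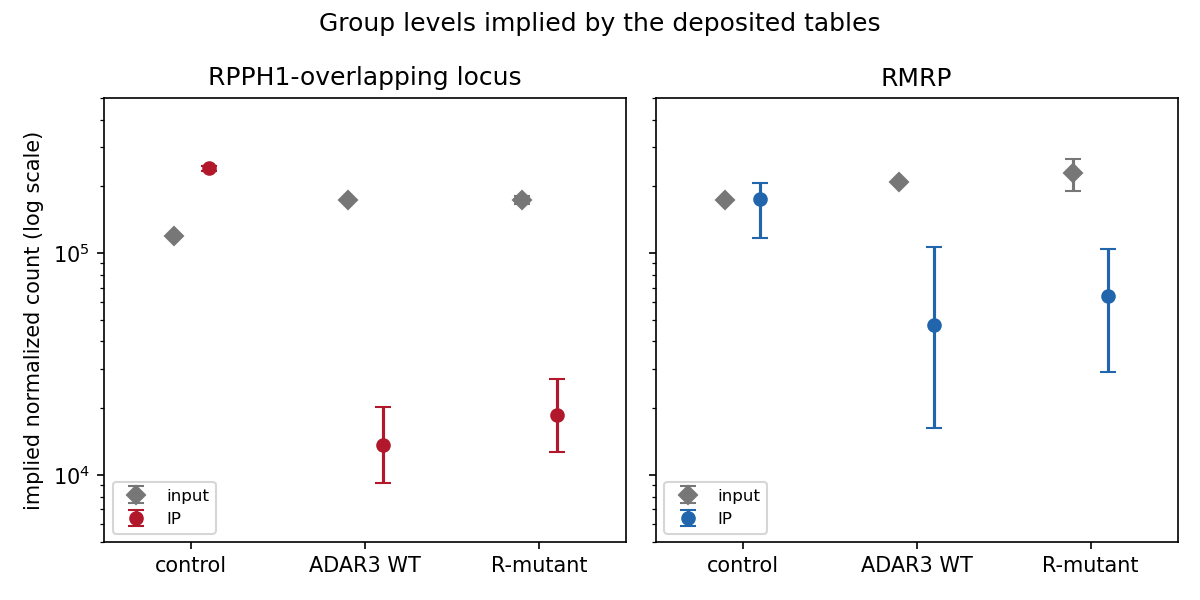
Normalized counts (log scale) implied by the deposited tables for input (diamonds) and IP (circles) in the 3 genotypes, for the RPPH1-overlapping locus (left) and RMRP (right). Bars give the range from the 95% interval of the IP fold changes alone; IP lies at 241768 in control and at 13705 and 18736 with ADAR3 WT and the R-mutant for the RPPH1-overlapping locus, and at 176157, 47377 and 64284 for RMRP.

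**Figure D4:**
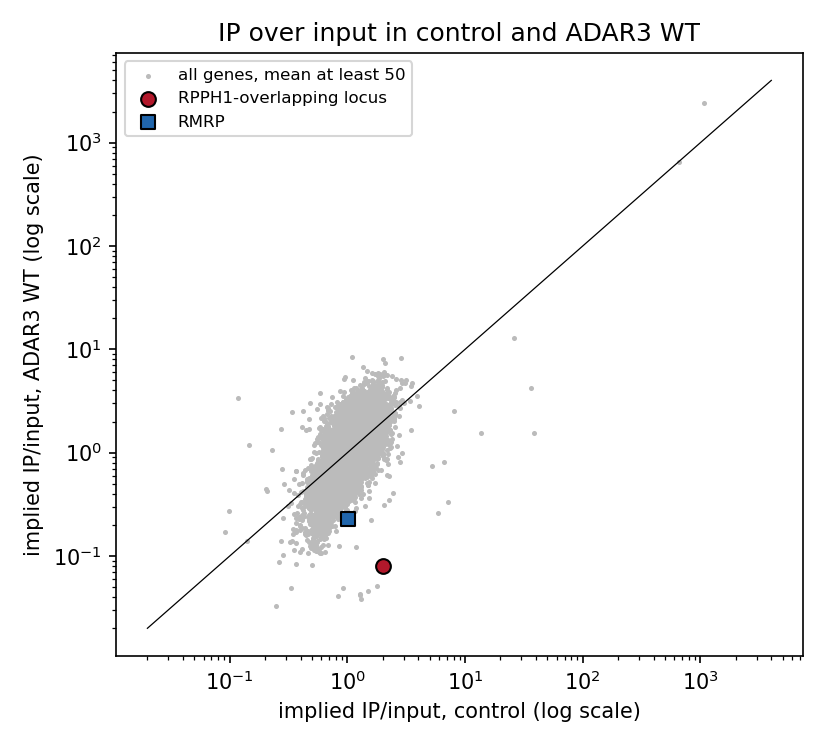
Implied IP over input in ADAR3 WT (vertical axis) against control (horizontal axis), both on log scales, for 13284 genes whose mean was at least 50 in all 4 tables (grey), with the line of equal values. The RPPH1-overlapping locus (2.01 in control, 0.0792 in ADAR3 WT) and RMRP (1.01 and 0.227) lie below the line.

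The precision of the 2 loci differed in the IP comparisons with control, although both had high counts. The standard error of RMRP was 0.90 in ADAR3 WT versus control, the third largest among 383 genes whose mean was at least 10000, whose median was 0.21. It was 0.80 in R-mutant versus control, also the third largest, among 326 genes. In R-mutant versus ADAR3 WT it was 0.28. The standard error of RMRP in ADAR3 WT versus control was 3.24 times that in R-mutant versus ADAR3 WT, the highest such ratio among the 383 genes, whose median ratio was 1.15. For the RPPH1-overlapping locus the ratio was 1.07. Its standard errors were also large for an abundant RNA. They ranked 15 from the largest among 383 genes in ADAR3 WT versus control and 13 among 326 in R-mutant versus control. In R-mutant versus ADAR3 WT its standard error of 0.29 ranked 10 among 413 genes. The standard error of RMRP in input was 0.32, with control libraries included. The error of RMRP was thus widest in both IP comparisons with control. Elsewhere it was smaller but still large for an abundant RNA. It ranked 12 from the largest among 413 genes in R-mutant versus ADAR3 WT, and 38 among 524 genes in input. Which libraries differed was not tested, since per-library values were not used here. For the same reason the depth of single libraries is unknown.

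**Figure D5:**
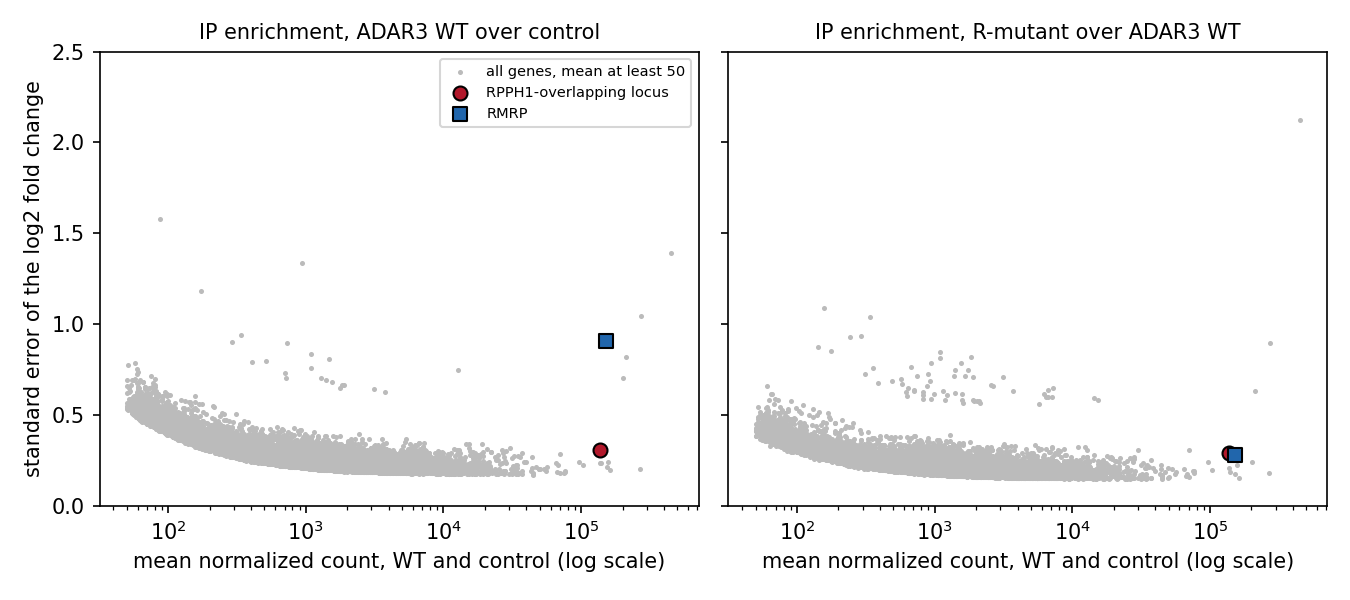
Standard error of the log2 fold change (vertical axis) against the mean normalized count over ADAR3 WT and control libraries (horizontal axis, log scale), for ADAR3 WT versus control (left) and R-mutant versus ADAR3 WT (right). RMRP lies at 0.90 on the left and at 0.28 on the right, and the RPPH1-overlapping locus at 0.31 and 0.29.

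Few genes lay near the RPPH1-overlapping locus in fold change, which goes with its place at the end of the range. Likeness was measured as the distance between the log2 fold changes in the 4 tables, which share libraries, over 13284 genes. Within a distance of 1 there were 10 genes for the RPPH1-overlapping locus and 288 for RMRP. The 5 genes nearest to the RPPH1-overlapping locus lay at distances of 0.532 to 0.692, with log2 fold changes from -5.13 to -4.34 in ADAR3 WT versus control and from -4.42 to -3.75 in R-mutant versus control. The nearest was ENSG00000282885, at -4.34 ± 0.35 and -4.08 ± 0.35 in the authors' deposited tables of these comparisons, with a mean of 814 in the first. Among the 5 was also a more abundant gene, ENSG00000276168, with a mean of 453191 in the first. It stood at -5.13 ± 1.39 and -4.22 ± 1.23 in these authors' deposited tables. The 5 genes nearest to RMRP lay at 0.213 to 0.347, with log2 fold changes from -2.20 to -1.92 and from -1.98 to -1.82. The nearest to RMRP was ENSG00000156976, at -2.09 ± 0.22 and -1.87 ± 0.25 in the authors' deposited tables, with a mean of 19268 in the first. ENSG00000156976 has a value like that of RMRP with a far smaller standard error.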

How the data were processed

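RIP-seq libraries of 3 genotypes and 2 fractions were described by the labels, and the GRCh38 build, STAR 2.7.7a, featureCounts and DESeq2 appear in the submitters' processing notes. The annotation, the formula of the model and its libraries are not given in the labels or headers. The analysis began from 4 comparison tables that the authors deposited. Per the file headers these hold a mean of normalized counts, used here as a signal, the log2 fold change and its standard error, a test statistic, which is a score, and p-values with adjusted p-values. Another 6 columns of per-library values in the input table match no label and were not used.

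The reading of the IP fold changes as a ratio of IP over input between genotypes is an assumption. The deposited names give the genotypes compared and a likelihood ratio test, but neither IP nor input. The agreement of implied levels over 13284 genes cannot tell this reading from a plain ratio of IP between genotypes, because input changed little for most genes. A normal test of fold over standard error was used, with Benjamini-Hochberg adjustment over all genes that have a deposited adjusted p. It was run on simulated fold changes with normal errors of the deposited size. The test assumes such errors, so the simulation cannot say whether they hold here. The p-values of the likelihood ratio test were set against a chi-square distribution within a relative tolerance of 0.01, and matched for 100% of the IDs compared in each IP table. Alternatives were the authors' adjusted p, an adjusted p under 0.01, a mean of at least 50, all genes, a log2 change of at least 1 and centring. Scripts ran under Python 3.11.15 with pandas 2.3.3, scipy 1.17.1, matplotlib 3.10.9 and numpy 2.4.6. Names and sequences come from RefSeq (GRCh38.p14).

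The members, lists and tests were chosen with earlier results of these data known. All members were to be named, with the 5 genes nearest to each by distance. Only the nearest gene of each is named, with ENSG00000276168 for the RPPH1-overlapping locus, because IDs are not paired with symbols. The planned lists of subunit, RNA polymerase III, U3 and neighbouring genes were not tested for the same reason.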

Additional observations from a re-analysis of the deposited data

How the results depend on the processing

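Of 40 combinations of locus, comparison and setting, 38 kept the direction and the side of the threshold. Direction could change only under centring, since the other settings leave the fold change as deposited. A threshold of 0.01 could not change the side of values that were not called. The RPPH1-overlapping locus versus control lay far below that threshold. The other 2 of the 40 combinations were R-mutant versus ADAR3 WT by the authors' adjusted p. There both loci passed with log2 fold changes of 0.43 (RPPH1-overlapping locus) and 0.29 (RMRP). The p of that test does not measure this fold change. The number of genes called by the authors' adjusted p was 9080 in ADAR3 WT versus control, 8626 in R-mutant versus control and 11947 in R-mutant versus ADAR3 WT, against 2986, 2814 and 1. An adjusted p under 0.01, stricter by construction, gave 1823, 1681 and, for input, 37 against 59. A log2 change of at least 1 gave 1558 and 1632, and a mean of at least 50 gave 2 in R-mutant versus ADAR3 WT. With distances over fold change divided by standard error, 2 of the 5 nearest genes of the RPPH1-overlapping locus and 0 of those of RMRP were shared; the cause was not tested. With means as deposited, an alternative added after the data were seen, IP over input in control was 1.37 and 0.601, against 2.01 and 1.01. That alternative moves the ratios of all genes. The depth of each library is unknown. No paired analysis was possible because the IP tables hold comparisons only and the per-library input columns match no label, so fits without each replicate or with a replicate block were not run. The alternatives for subunit genes were not run.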
